A study of Homo sapiens with 8 samples.

Results

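RNA recovered with hnRNP U from thymidine-arrested cells was compared with RNA of the same kind of cells taken without immunoprecipitation (IP). The comparison uses 4 of the 8 libraries of the series, chosen by their labels: 2 of the hnRNP U IP in interphase and 2 of interphase RNA without IP. All come from hTERT-RPE1, a human retinal pigment epithelial line immortalized with telomerase. Both interphase groups received 2 mM thymidine for 24 h, a treatment that arrests DNA synthesis. The IP used the antibody 3G6 against hnRNP U. The other 4 libraries form the same pair of groups in mitosis, reached by 24 h in 2 mM thymidine, 6 h of release and an overnight block with STLC, an inhibitor of the kinesin Eg5. They entered the fit and serve below as the point of comparison. Lysates were made with the detergent NP-40, passed through a needle and cleared by centrifugation, so the IP sampled RNA that stayed in solution. The sources used here do not say whether the RNA without IP was taken from that cleared lysate, and no control-antibody IP was analysed. RNA bound by hnRNP U, RNA held on beads and RNA lost with the pellet therefore cannot be told apart. Nothing in the labels says that the 2 replicates are separate cultures, so each p-value measures only the spread between these libraries.

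hnRNP U, also called SAF-A, is an abundant nuclear protein that binds DNA through an N-terminal SAP domain and RNA through a C-terminal RGG region. It is known as a component of the salt-resistant nuclear scaffold, as a partner of nascent transcripts and chromatin-associated RNA, and as a regulator of splicing. In mitosis Aurora B phosphorylates it and it leaves the chromosome surface, which is the setting of the series.

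Each table gives 1 FPKM value (fragments scaled to the length of the transcript and to all mapped fragments) for each library. The gene table holds 13471 genes and a separate table of lncRNA features holds 1321. Replicates of the interphase groups correlated at 0.989 and 0.995 across genes and at 0.871 and 0.875 across lncRNA features. From the steps in which low FPKM values rise, the depth of the other interphase libraries was 0.839 to 1.08 of that of the first library without IP. FPKM over all genes summed to 1087268 and 1138350 without IP and to 349389 and 321539 in the IP. The 10 highest genes held 62.1% and 63.0% of that sum without IP but 18.5% and 12.4% in the IP. Such a value is scaled to transcript length, so a part of the summed FPKM is not the same part of the library's fragments, and short RNAs weigh more in it. It is also scaled to all mapped fragments, so fewer fragments of some RNAs raise the values of the rest. The size of that effect was not measured, nor was absolute recovery. The median gene had 6.74 and 6.57 FPKM without IP and 6.08 and 5.96 FPKM in the IP. Of 12 markers of retinal pigment epithelium 7 were in the table, and MITF, OTX2, KRT8 and KRT18 were at 8.37 FPKM or more without IP. PMEL lay between 0.032 and 0.144 FPKM, and RPE65, RLBP1, BEST1, TYR and TYRP1 were not among the measured genes. None of the listed immune or endothelial markers was in the table. Of 5 fibroblast or mesenchymal markers 4 were, and VIM lay between 1702 and 1916 FPKM in the 4 interphase libraries. Without IP, THY1 was at 148 and 130 FPKM, PDGFRB at 8.87 and 9.47 and COL1A1 at 1.06 and 1.05, and COL1A2 was not measured. Of 4 neural retina markers only PAX6 was in the table, at 8.94 and 10.3 FPKM without IP.

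Sequences of genes at both ends of the comparison are shown first, since base composition and length come up repeatedly below. All were read from GENCODE release 29 (GRCh38), as DNA letters 5′ to 3′. The Y RNA gene RNY1 (chr7:148987136-148987248, minus strand) and the U4 gene RNU4-1 (chr12:120293097-120293237, minus strand) encode short structured RNAs of 113 and 141 nt, among the most depleted RNAs. In the first line capitals mark the T run at the 3′ end, and in the second the ATTTTTG of the Sm site, the binding site of the Sm ring in spliceosomal RNAs.
RNY1: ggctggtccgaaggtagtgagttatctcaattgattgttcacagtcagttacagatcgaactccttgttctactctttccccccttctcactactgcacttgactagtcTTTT
RNU4-1: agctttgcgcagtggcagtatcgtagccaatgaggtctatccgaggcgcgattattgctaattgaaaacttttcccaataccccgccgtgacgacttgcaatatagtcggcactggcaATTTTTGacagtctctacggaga
The next 4 lines give 150 nt from the middle of coding sequences, with every G and C in capitals. COX8A (chr11:63974607-63976543, plus strand; nucleotides 28 to 177 of 207) encodes a small subunit of cytochrome c oxidase, and C4orf48 (chr4:2041993-2043970, plus strand; nucleotides 67 to 216 of 285) a small secreted peptide. Both fell in the IP. PTAR1 (chr9:69709522-69759959, minus strand; nucleotides 451 to 600 of 1050) encodes a protein prenyltransferase subunit, and PCGF5 (chr10:91163012-91284331, plus strand; nucleotides 310 to 459 of 768) a Polycomb ring-finger protein. Both rose in the IP.
COX8A: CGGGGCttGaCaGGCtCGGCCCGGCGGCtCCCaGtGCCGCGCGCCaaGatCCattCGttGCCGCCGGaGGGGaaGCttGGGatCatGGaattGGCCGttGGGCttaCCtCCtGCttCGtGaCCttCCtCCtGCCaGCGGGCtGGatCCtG
C4orf48: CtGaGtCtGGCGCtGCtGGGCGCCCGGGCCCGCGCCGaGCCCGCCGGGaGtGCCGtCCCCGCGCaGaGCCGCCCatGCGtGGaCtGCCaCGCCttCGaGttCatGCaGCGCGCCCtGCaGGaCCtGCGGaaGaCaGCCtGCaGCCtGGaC
PTAR1: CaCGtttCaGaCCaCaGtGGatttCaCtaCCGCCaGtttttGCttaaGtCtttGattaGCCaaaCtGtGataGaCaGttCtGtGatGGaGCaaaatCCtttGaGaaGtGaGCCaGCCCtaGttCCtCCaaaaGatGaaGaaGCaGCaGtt
PCGF5: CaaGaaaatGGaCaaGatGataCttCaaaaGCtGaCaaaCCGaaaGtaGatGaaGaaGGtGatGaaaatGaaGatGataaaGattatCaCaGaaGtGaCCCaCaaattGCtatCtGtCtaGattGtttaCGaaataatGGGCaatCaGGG
G and C make up 66.7% of the COX8A window and 74.7% of the C4orf48 window, against 44.0% in PTAR1 and 36.0% in PCGF5.

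In interphase 5068 genes (37.6% of those tested) were higher in the IP than without IP and 4983 (37% of those tested) were lower, by limma with a Benjamini-Hochberg adjusted p below 0.05. A difference of at least 1 on the log2(FPKM + 1) scale was reached by 2273 of the higher genes (16.9%) and 2888 of the lower ones (21.4%). All genes together had a median log2 fold change of 0.02, which moved to 0.14 when each library was centred on its median. That centring gave 5778 higher and 4499 lower genes. Gene lists are described below by their counts and medians against these figures. Counts given with trends of transcript length and GC content removed stand against 4387 higher and 3714 lower of 13108 genes. Values for 23 genes in each interphase library are plotted next.

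**Figure D1:**
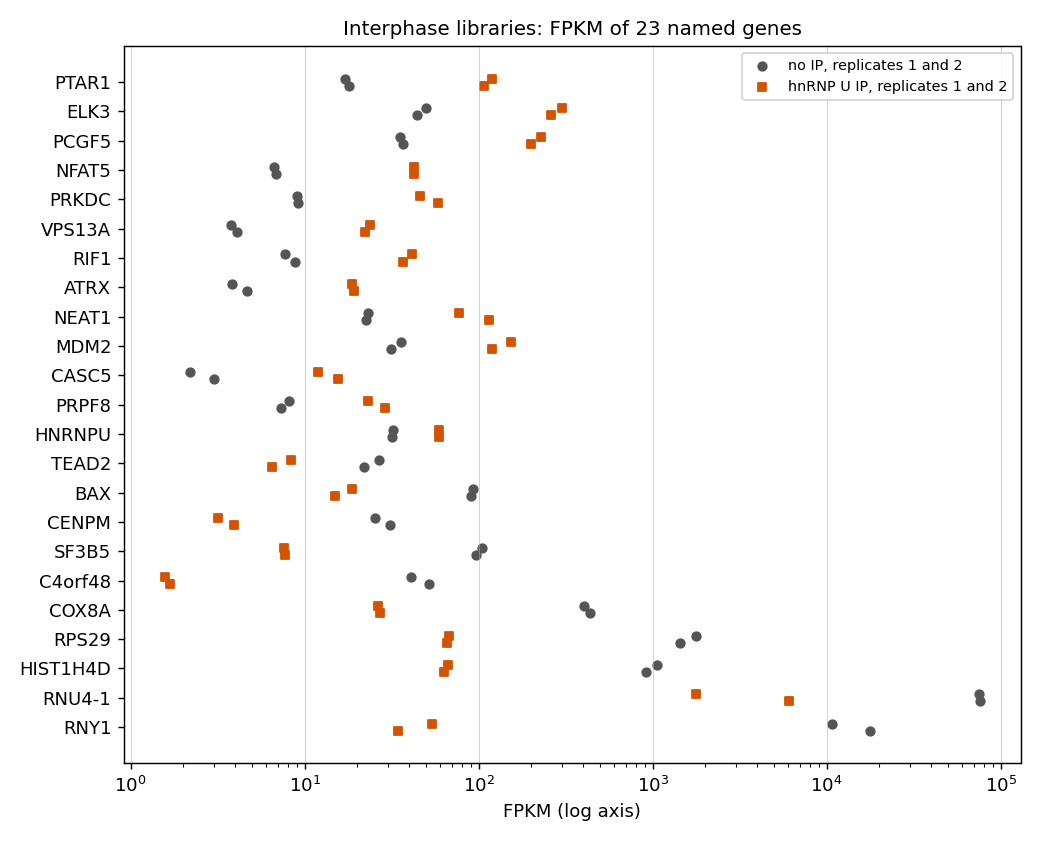
FPKM (log axis) of 23 genes named in the text in the 4 interphase libraries. Grey circles are the 2 libraries without IP and orange squares the 2 of the hnRNP U IP. Within each gene the IP squares and the no-IP circles do not overlap, from RNY1 (10700 and 17851 FPKM against 34.3 and 53.7) to PTAR1 (17.1 and 18.0 against 107 and 120).

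The target's own mRNA was at 31.7 and 32.4 FPKM without IP and at 59.5 in both IP libraries. HNRNPU thus rose modestly, by a log2 fold change of 0.87 (standard error, SE, 0.10; limma adjusted p 4.2e-05). Once trends with annotated transcript length and GC content were removed from each library, it fell by 0.64 (adjusted p 0.000452). The length used there was 13084 nt, that of its longest annotated transcript. Its coding length was 2475 nt and its 3′ UTR 4153 nt. Whether that longest transcript is the main one in these cells was not measured, so the change of sign is uncertain. Among genes of rank 6 to 15 by fold change, PTAR1 went from 18.0 and 17.1 to 107 and 120 FPKM (log2 fold change 2.62, SE 0.12, adjusted p 3.8e-07). ELK3, an ETS-family transcription factor, went from 44.2 and 49.8 to 262 and 302 FPKM (2.56). PCGF5 went from 36.6 and 35.5 to 200 and 229 FPKM (2.54), and NFAT5, the transcription factor of the osmotic stress response, from 6.82 and 6.71 to 42.5 and 42.3 FPKM (2.48). At the other end C4orf48 went from 51.8 and 41.1 to 1.69 and 1.57 FPKM (log2 fold change -4.17, SE 0.21, adjusted p 5.39e-07).

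Short structured RNAs transcribed for housekeeping machines were depleted. The 5 measured RNAs of the Y, 7SK, telomerase and RNase P/MRP group had a median log2 fold change of -5.02, with 4 called lower and none higher. The median was -2.05 with 3 lower under quantile normalization, and -3.02 with 3 lower once trends with length and GC content were removed. RNY1, whose RNA binds the Ro60 protein, stood at 17851 and 10700 FPKM without IP and at 34.3 and 53.7 FPKM in the IP. Its libraries with and without IP did not overlap, at a log2 fold change of -8.30 (SE 0.58, adjusted p 2.48e-06). RPPH1, the RNA of RNase P, went from 141706 and 168097 to 349 and 1494 FPKM (-7.74, SE 1.33). RN7SK, the RNA that holds the kinase P-TEFb inactive, went from 93818 and 102121 to 2762 and 3291 FPKM (-5.02, adjusted p 0.0185). The fitted spread at such high levels was wide, and the RN7SK call was lost when any 1 interphase library was left out (-4.89 to -5.15, adjusted p 0.0503 to 0.0686) and under quantile normalization (-1.18, adjusted p 0.61). RMRP, the RNA of RNase MRP, was at 52343 and 54873 FPKM without IP and at 13086 and 7700 FPKM in the IP, with no call (-2.42, SE 2.47, adjusted p 0.398). It was called in a fit without the mean-variance trend (adjusted p 3.48e-05), and its value turned to 1.38 under quantile normalization, with no call. TERC, the template RNA of telomerase, went from 50.5 and 41.0 to 12.4 and 8.04 FPKM (-2.08, adjusted p 4.48e-05), and was at 0.25 with no call once length and GC trends were removed.

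Spliceosomal snRNAs, the RNA parts of the splicing machinery, fell as a group: 13 of 15 were lower and none higher, with a median of -3.92. RNU4-1 went from 75767 and 75115 FPKM to 6035 and 1774 FPKM. Both IP libraries were below both libraries without IP, and they differed from each other more than the libraries without IP did. Its log2 fold change was -4.53 (SE 1.67, adjusted p 0.0347), and the call was lost without either no-IP library (-4.52 and -4.53, adjusted p 0.108 and 0.11), without IP replicate 2 (-3.64, adjusted p 0.166) and under quantile normalization (-0.93, adjusted p 0.693). The snRNA median was -2.99 in the first replicate pair and -4.58 in the second, and without IP replicate 2 the list had 9 lower members and a median of -2.60. Under quantile normalization it had 9 and -2.19. Near-identical copies exist for most of these genes, and how the authors counted shared reads is not given in the sources used here.

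Guide RNAs of the nucleolus and Cajal body gave a less even picture. Of 104 box H/ACA snoRNAs and scaRNAs, which direct pseudouridylation, 43 were lower and none higher (median -1.12). Of 67 box C/D snoRNAs, which direct ribose methylation, 13 were lower and 4 higher (median -0.54). The H/ACA medians were -0.50 and -1.79 in the 2 replicate pairs, and the C/D medians 0.03 and -0.56. Without IP replicate 2, 20 H/ACA members were lower, and without no-IP replicate 2, 25 were. Without IP replicate 1, 63 were. The C/D list had 9 higher members without no-IP replicate 2, 8 higher and a median of 0.02 without IP replicate 2, and 21 lower without IP replicate 1. Removal of length and GC trends turned the counts to 30 higher and 13 lower for H/ACA and 23 higher and 2 lower for C/D. SNORA12 went from 265 and 320 to 24.9 and 14.3 FPKM (-3.87), and SNORD32A from 350 and 296 to 76.8 and 19.7 FPKM (-3.01). SNORD114-14, from the imprinted snoRNA cluster on chromosome 14, moved the other way, from 140 and 148 to 546 and 514 FPKM (1.87, adjusted p 3.09e-05). Of these lists 96 and 54 members lie in an interval shared with another gene of the table, mostly their hosts, so reads of the host intron and of the mature snoRNA may be mixed.

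Long noncoding RNAs went both ways. In the list named abundant nuclear lncRNAs, 9 of 16 members were higher and 3 lower (median 0.75). That is only the list's name, and where each member resides in the cell was not measured. NEAT1, the scaffold RNA of paraspeckles, went from 22.6 and 23 to 114 and 77.3 FPKM (log2 fold change 1.99, adjusted p 5.62e-06), and OIP5-AS1 from 26.6 and 24.6 to 104 and 113 FPKM (2.05). LINC00152 fell from 90.7 and 85.3 to 9.45 and 8.45 FPKM (-3.16). Host genes of snoRNAs were mostly lower, 16 of 23, with 3 higher (median -0.90). Of these 20 share their interval with another gene, and the 1 member left once genes with ambiguous intervals were dropped was at -0.24 with no call. SNHG9 went from 23.2 and 30.7 to 0.405 and 0.933 FPKM (-4.07). By annotated gene type, 145 of 531 long noncoding genes were higher (27.3%) and 110 lower (20.7%), with a median of 0.07. Both shares lie below the 37.6% and 37% of all genes. Of 16 sense-intronic genes 8 were higher and none lower, but 14 share their interval with another gene. Of 287 pseudogenes 70 were higher (24.4%) and 75 lower (26.1%). The median level without IP was 1.04 FPKM for long noncoding genes and 0.877 FPKM for pseudogenes, against 6.67 FPKM for all genes. Changes at such low levels are understated on the log2(FPKM + 1) scale.

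In the table of lncRNA features 101 of 1321 (7.65% of those tested) were higher in the IP and 116 (8.78% of those tested) lower, with a median of -0.02. These features were not matched to genes, so some may cover RNAs already described above and are not separate evidence. The feature XLOC_002583, at hg19 position chr11:65190244-65278499, was at 5882 and 5688 FPKM without IP and at 34286 and 31325 FPKM in the IP (2.50, SE 0.15, adjusted p 0.00119). XLOC_007828 (chr2:18478993-18578962) went from 1.35 and 1.16 to 14 and 15.1 FPKM (2.79). XLOC_008823 (chr2:110969062-110980517) fell from 974 and 965 to 58.3 and 37.9 FPKM (-4.34), and XLOC_006569 (chr17:58160695-58166013) from 300 and 223 to 19.8 and 12 FPKM (-3.98). Over quintiles of locus length the medians ran from -0.13 for the shortest loci to 0.13 for the longest. The counts depend on the libraries fitted: with the 4 interphase libraries alone 19 were higher and 46 lower. Leaving out any 1 interphase library gave 17 to 26 higher and 27 to 44 lower. Centring on the median gave 115 higher and 88 lower, and quantile normalization 110 and 80.

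Histone mRNAs were depleted throughout. All 41 measured replication-dependent histone genes, H2AFX included, were lower in the IP, with a median of -3.47 and a range from -3.90 to -1.39. HIST1H4D, a histone H4 gene, went from 910 and 1060 to 63.1 and 66.5 FPKM (SE 0.17, adjusted p 3.8e-07). HIST1H2BJ, an H2B gene, went from 837 and 972 to 57.8 and 64.3 FPKM (-3.86). HIST1H3E, named after its value was seen, had the weakest change at -1.39. Replication-dependent histone mRNAs typically end in a conserved stem-loop in place of a poly(A) tail. The pattern GGNNNTTNTNAGNNCC, searched on the sense strand, was found in an annotated transcript of 19 of the 41 genes, and in 1.88% of the longest transcripts of all matched genes. Its commonest form, in 11 of the histone genes, is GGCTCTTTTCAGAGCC. The pattern started from 17 nt (HIST1H2BE) to 1777 nt (HIST1H2AG) before the annotated 3′ end. Some annotated transcripts thus run on well past it. The median was -3.45 in genes with the pattern and -3.51 in the 22 without it, many of which are annotated without a 3′ UTR. Removal of length and GC trends left 38 lower and none higher, at a median of -1.45. Near-identical copies of histone genes make single values uncertain.

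Messenger RNAs of the translation apparatus were depleted most where they encode ribosomal proteins. Of 84 cytosolic ribosomal protein genes 74 were lower and 2 higher (median -2.34). RPS29 went from 1444 and 1764 to 66.2 and 67.2 FPKM (-4.56, SE 0.19, adjusted p 3.14e-07), RPS21 from 790 and 877 to 38.1 and 46.6 FPKM (-4.27), and RPL38 from 1170 and 1409 to 68.7 and 82.9 FPKM (-4.07). RPL7L1, a nucleolar relative of RPL7, rose from 10.2 and 10.5 to 17.0 and 17.1 FPKM (0.67). Of 77 mitochondrial ribosomal protein genes 61 were lower and 9 higher (median -1.33). MRPL41 went from 101 and 91.7 to 9.12 and 6.47 FPKM (-3.48), while MRPL19 went from 10.7 and 11 to 28.2 and 31.7 FPKM (1.38). In the list of translation factors 30 of 57 were lower (52.6%, against 37% of all genes) and 21 higher (36.8%, near the 37.6% of all genes), with a median of -0.64. EEF1D, an exchange factor of elongation, fell from 129 and 136 to 19.3 and 20.6 FPKM (-2.68). EIF2AK2, a member of the list that is no translation factor but the kinase PKR that shuts off initiation, rose from 21.7 and 23.1 to 95.2 and 106 FPKM (2.12). Of 37 aminoacyl-tRNA synthetase genes 12 were higher (32.4%) and 15 lower (40.5%), not far from the 37.6% and 37% of all genes (median -0.16). EPRS, the large fused glutamyl-prolyl synthetase, had the largest increase among them, from 15.1 and 14.6 to 49.4 and 46.6 FPKM (1.63).

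Oxidative phosphorylation genes had a median close to that of cytosolic ribosomal proteins, and glycolysis genes were depleted less. Of 81 nuclear-encoded subunits of oxidative phosphorylation 74 were lower and 3 higher (median -2.28). COX8A went from 438 and 402 to 27.1 and 26.5 FPKM (-3.92, SE 0.18, adjusted p 4.31e-07) and ATP5I, a small subunit of ATP synthase, from 420 and 481 to 30.9 and 28.9 FPKM (-3.87). The exception with the largest value was NDUFS1, the largest subunit of complex I, from 27.9 and 24.0 to 57.6 and 52.0 FPKM (1.05). Without length and GC trends NDUFS1 stood at -0.15 with no call. In that setting the list had 74 lower members, at a median of -1.53. Of 16 glycolysis genes 13 were lower and 1 higher (median -0.88). GAPDH went from 1372 and 1626 to 326 and 391 FPKM (-2.06, adjusted p 0.000179), and the call was lost under quantile normalization (-0.68, adjusted p 0.205). HK2, a hexokinase, was the higher one, from 1.67 and 2.17 to 4.02 and 4.73 FPKM (0.88). Of 23 cholesterol synthesis genes 14 were lower and 7 higher (median -0.83). EBP, a sterol isomerase, fell from 49.9 and 42.5 to 9.58 and 6.58 FPKM (-2.39).

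Protein turnover was divided by class of enzyme. Of 37 proteasome subunits 27 were lower and 2 higher (median -1.21). PSMB6, a catalytic beta subunit, went from 124 and 115 to 19.2 and 16.3 FPKM (-2.69). PSMD12, a lid subunit, went from 17.2 and 14.7 to 29.9 and 26.8 FPKM (0.79), and it was at -0.17 with no call once length and GC trends were removed. Of 29 HECT and cullin ubiquitin ligases 24 were higher and 1 lower (median 1.20). CUL5, a cullin scaffold, went from 13.3 and 11.6 to 47.6 and 49.8 FPKM (1.89, SE 0.10, adjusted p 8.07e-07). The lower one, UBE3B, went from 17.6 and 22.7 to 12.1 and 15.2 FPKM (-0.52, adjusted p 0.0192). That call was lost without IP replicate 1 (-0.37, adjusted p 0.128), without no-IP replicate 2 (-0.35, adjusted p 0.145) and with median centring (-0.40, adjusted p 0.0632). Free of length and GC trends, 12 of the 29 ligases were higher and 2 lower, at a median of 0.22. Of all 13108 genes in that setting, 4387 were higher and 3714 lower. Of 23 subunits of the TRiC chaperonin and major heat shock proteins, which fold other proteins, 5 were higher and 7 lower (median 0.03). Without no-IP replicate 2, 2 were higher, and under quantile normalization 8 were (median 0.37).

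**Figure D2:**
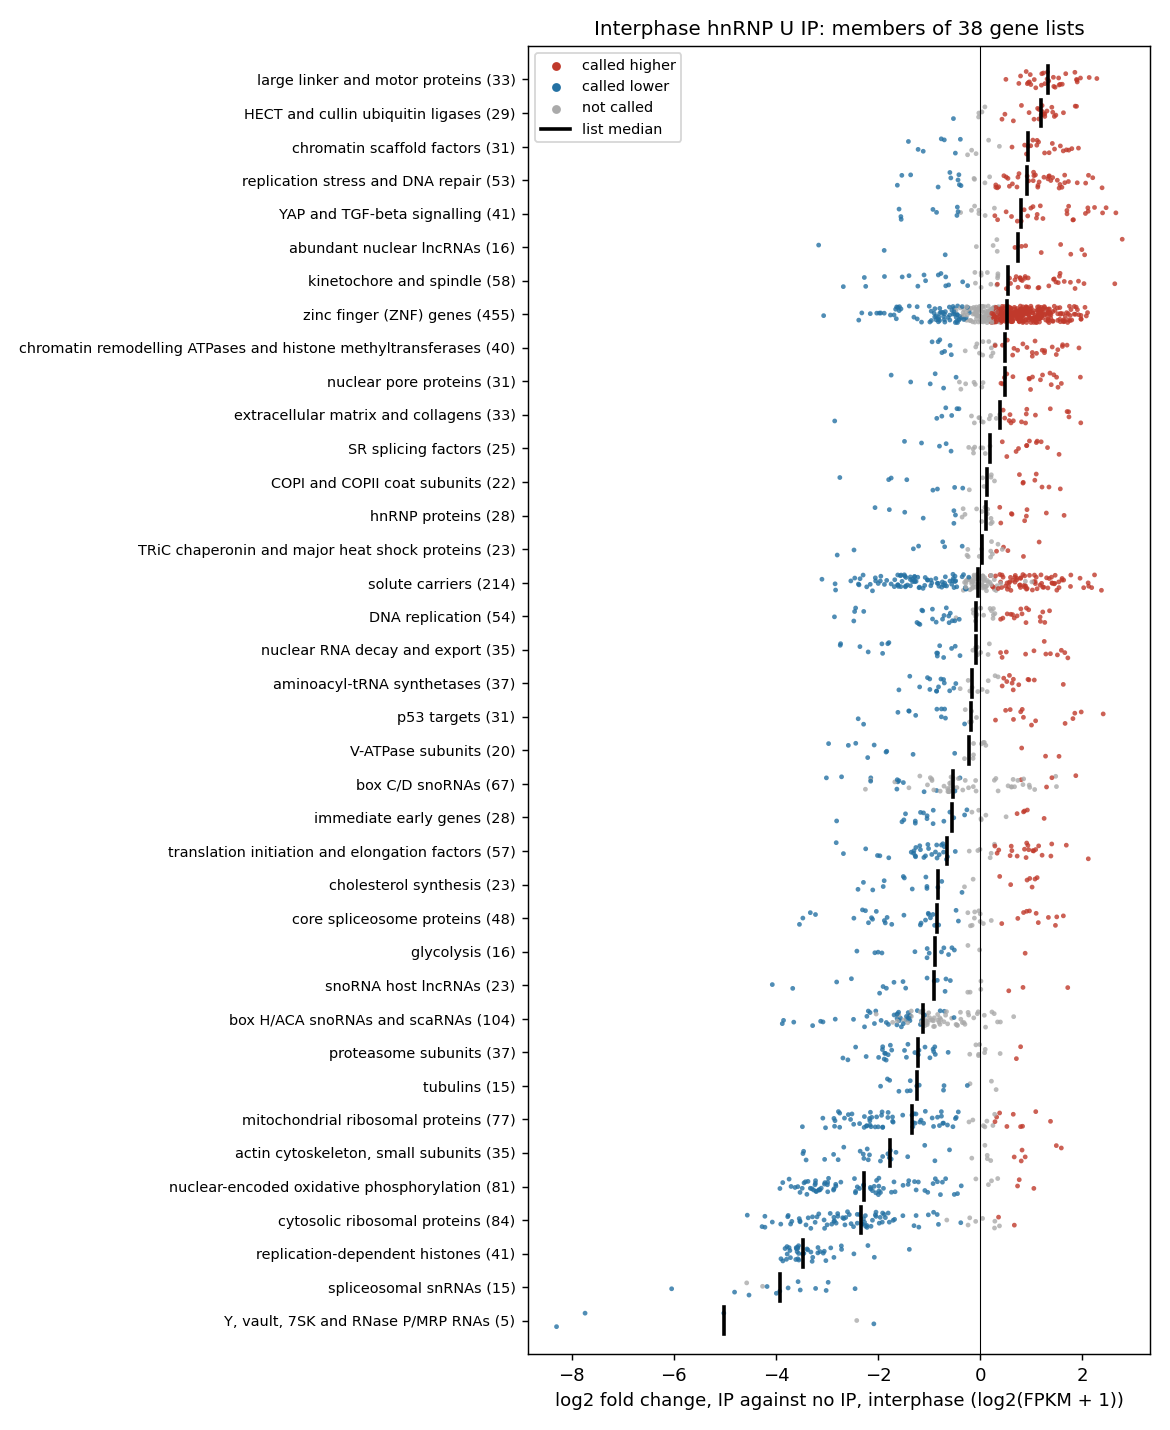
Log2 fold change of each member of 38 gene lists, IP against no IP in interphase, with the number of measured members in parentheses. Red points were called higher, blue lower, grey not called, and black bars are list medians, which run from -5.02 for the Y, 7SK and RNase P/MRP group to 1.32 for large linker and motor proteins.

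Messages for large linker and motor proteins were enriched. All 33 measured genes for large linkers and motors of the cytoskeleton and membranes were higher (median 1.32, range 0.50 to 2.29). VPS13A, a bridge-like lipid transfer protein, went from 4.07 and 3.75 to 22.1 and 23.8 FPKM (2.29, SE 0.10, adjusted p 3.69e-07), and DST, a spectraplakin, from 12.9 and 9.70 to 54.8 and 39.7 FPKM (1.97). In the fit without length and GC trends, 13 of the 33 were higher and 2 lower (median 0.30), against 4387 and 3714 of all 13108 genes. The lists of small cytoskeletal proteins mostly fell. Of 35 genes in the list named small subunits of the actin cytoskeleton 24 were lower and 6 higher (median -1.76). That name does not cover every member, since a galectin and a calcium-binding protein are among its most depleted genes. Of 15 tubulins 12 were lower and none higher (median -1.24). TMSB10, a thymosin that binds actin monomers, went from 4339 and 5951 to 425 and 501 FPKM (-3.46), and TUBA1B, an alpha tubulin, from 548 and 490 to 146 and 156 FPKM (-1.77). ACTR2, an actin-related subunit of the Arp2/3 complex, rose from 64.5 and 58.4 to 205 and 170 FPKM (1.59).

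Chromatin and genome maintenance genes other than histones were mostly enriched. Of 53 genes of replication stress and DNA repair 39 were higher and 10 lower (median 0.92). PRKDC, the DNA-dependent protein kinase, went from 9.21 and 9.05 to 58.5 and 46.3 FPKM (2.39, SE 0.13, adjusted p 7.43e-07), and RIF1, a regulator of replication timing and end protection, from 8.77 and 7.68 to 36.9 and 41.4 FPKM (2.12). FANCG, of the Fanconi anaemia core complex, fell from 12.7 and 13.2 to 3.33 and 3.77 FPKM (-1.62). Of 31 chromatin scaffold factors 19 were higher and 7 lower (median 0.94). TOP2A, a topoisomerase of mitotic chromosomes, went from 24.5 and 27.5 to 91.8 and 85.7 FPKM (1.74), and PDS5A, a cohesin regulator, from 32.8 and 32.8 to 113 and 144 FPKM (1.93). Of 40 chromatin remodelling ATPases and histone methyltransferases 22 were higher and 7 lower (median 0.49). ATRX, a remodeller of heterochromatin, went from 4.68 and 3.84 to 19.3 and 18.8 FPKM (1.94). With length and GC trends removed, 23 of 53 repair genes were higher and 5 lower, and 13 of 31 scaffold factors higher and 5 lower. Of the 40 remodellers and methyltransferases 9 were higher and 6 lower, a smaller share in each direction than among all genes. In that setting 4387 of all 13108 genes were higher and 3714 lower. Without no-IP replicate 1 or IP replicate 2, 4 scaffold factors were lower. Of 54 DNA replication genes 17 were higher (31.5%) and 22 lower (40.7%), not far from the 37.6% and 37% of all genes (median -0.08). POLE4, a small subunit of polymerase epsilon, fell from 93.4 and 97.8 to 12 and 12.7 FPKM (-2.85), and DNA2, a large nuclease-helicase, rose from 7.90 and 8.08 to 19.8 and 24.6 FPKM (1.36).

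Several complexes held large members that rose and small members that fell. Of 48 core spliceosome protein genes 27 were lower and 11 higher (median -0.85). PRPF8, the very large protein at the catalytic centre, went from 7.27 and 8.09 to 29.1 and 23 FPKM (1.63, SE 0.21, adjusted p 8.9e-05; coding length 7005 nt). SF3B5, a small subunit of the SF3B complex, went from 96.1 and 104 to 7.73 and 7.64 FPKM (-3.54; 258 nt), and LSM7, of the U6-binding Lsm ring, from 91.4 and 76.5 to 5.31 and 8.21 FPKM (-3.47; 147 nt). Of 58 kinetochore and spindle genes 31 were higher and 16 lower (median 0.54, and 0.34 without no-IP replicate 2). CASC5, the KNL1 scaffold of the outer kinetochore, went from 3.0 and 2.2 to 15.5 and 12 FPKM (2.03; 7026 nt), and the checkpoint kinase TTK from 11.5 and 10.1 to 41.1 and 46.6 FPKM (1.93; 2568 nt). CENPM, a small centromere protein, went from 31.0 and 25.5 to 3.93 and 3.18 FPKM (-2.68; 438 nt). Of 35 genes of nuclear RNA decay and export 12 were higher (34.3%) and 16 lower (45.7%), against 37.6% and 37% of all genes. ZFC3H1, a scaffold that links RNA to the exosome, went from 2.44 and 2.42 to 10.9 and 9.71 FPKM (1.72; 5967 nt), and NXT1, the small partner of the export receptor NXF1, from 25.1 and 27.2 to 2.65 and 3.51 FPKM (-2.74; 420 nt). Across the members of a list, Spearman's rho between fold change and coding length was 0.80 for kinetochore and spindle, 0.70 for RNA decay and export, 0.67 for the spliceosome and 0.55 for oxidative phosphorylation. These 4 lists were chosen after their values were seen, and other lists had values near 0, among them -0.03 for large linkers and motors, -0.02 for YAP and TGF-beta signalling and 0.07 for cholesterol synthesis. These describe genes of the same libraries, which are not independent replicates, and GC content runs with length in part (rho with GC content -0.63, -0.72, -0.45 and -0.48).

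**Figure D3:**
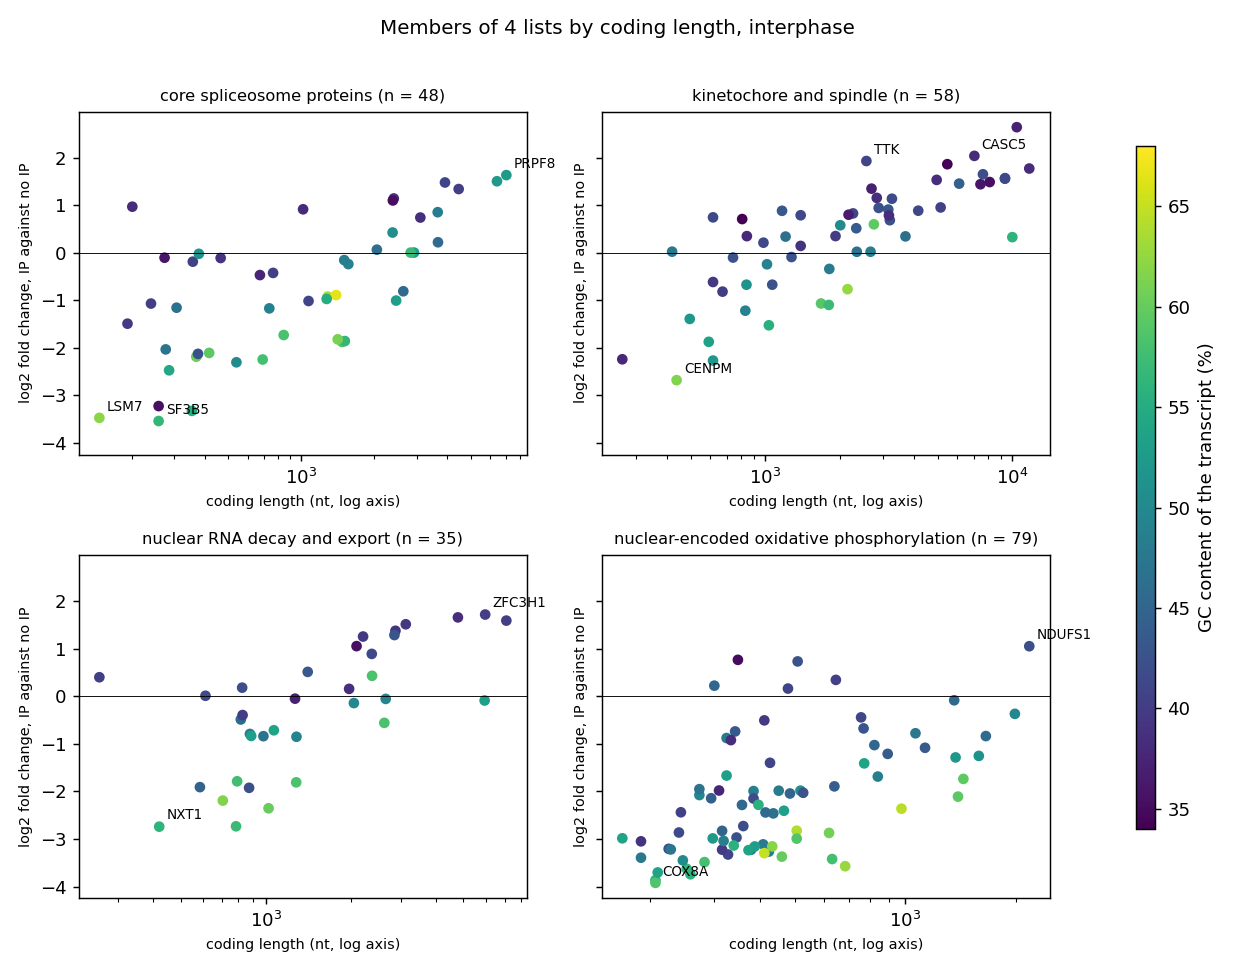
Log2 fold change in the interphase IP (vertical axis) against annotated coding length (horizontal log axis, nt) for members of 4 lists, coloured by GC content of the longest transcript. The 4 lists were chosen after their values were seen. In the kinetochore panel CENPM, with 438 nt, lies at -2.68 and CASC5, with 7026 nt, at 2.03.

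Nuclear pores, vesicle coats and transporters also held members that moved in opposite directions. Of 31 nuclear pore genes 18 were higher and 6 lower (median 0.48). RANBP2, the large filament protein of the cytoplasmic face, went from 4.56 and 3.73 to 20.7 and 17.5 FPKM (1.96), and TPR, the basket protein, from 5.36 and 3.51 to 17.0 and 13.4 FPKM (1.59). The TPR call was lost once length and GC trends were removed (0.34, adjusted p 0.196). SEC13, a small propeller shared by pores and COPII coats, fell from 64.1 and 63.2 to 19.2 and 17.5 FPKM (-1.74). Of 22 coat subunits 8 were higher and 8 lower (36.4% each), shares near the 37.6% and 37% of all genes. COPE, of the COPI coat, fell from 81.0 and 80.7 to 11.2 and 11.1 FPKM (-2.75), and SEC24B, a cargo adaptor of COPII, rose from 6.60 and 6.86 to 20.4 and 23.6 FPKM (1.57). Of 20 V-ATPase subunits 3 were higher and 9 lower, with ATP6V1F going from 122 and 119 to 14.4 and 14.7 FPKM (-2.97) and ATP6V1C1 from 20.3 and 16.9 to 59.8 and 52.3 FPKM (1.55). Of 214 solute carriers 73 were higher and 84 lower (median -0.04), a share near that of all genes. SLC36A4, an amino acid transporter, went from 8.75 and 8.39 to 46.9 and 50.5 FPKM (2.38), and SLC25A39, a mitochondrial carrier, from 65.1 and 59.9 to 5.19 and 7.87 FPKM (-3.10). Of 33 extracellular matrix genes 16 were higher and 7 lower (median 0.38). COL5A2, a fibrillar collagen, went from 2.62 and 3.04 to 16.2 and 12.1 FPKM (1.97), and TIMP1, a small metalloprotease inhibitor, from 35.8 and 32.4 to 4.23 and 3.54 FPKM (-2.85).

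Transcription factors and signalling genes moved both ways. Of 455 zinc finger genes with a ZNF symbol 287 were higher and 70 lower (median 0.53). ZNF652 went from 3.13 and 3.98 to 16.9 and 20.3 FPKM (2.10), and ZNF593, a short member, from 17.2 and 20.0 to 1.10 and 1.59 FPKM (-3.06). Of 41 genes of YAP and TGF-beta signalling 26 were higher and 8 lower (median 0.81). BMPR2, a BMP receptor, went from 13.6 and 14.7 to 76.1 and 89.9 FPKM (2.47, SE 0.11, adjusted p 4.36e-07). Without either no-IP library 5 members of that list were lower. Of 31 p53 targets 14 were higher (45.2%) and 12 lower (38.7%), against 37.6% and 37% of all genes. MDM2, the ubiquitin ligase of p53, went from 31.4 and 35.6 to 119 and 153 FPKM (1.98), and BAX, a death effector, from 90.5 and 92.7 to 15 and 18.6 FPKM (-2.39). Of 28 immediate early genes 17 were lower and 5 higher (median -0.55). JUND fell from 64.3 and 59.3 to 7.70 and 8.20 FPKM (-2.81), and KLF6 rose from 13.7 and 13.0 to 33.8 and 32.6 FPKM (1.25). With length and GC trends removed, the immediate early list had 12 higher and 5 lower members (median 0.23) and the p53 list 14 and 5 (median 0.24). RNA-binding proteins of the hnRNP family, to which hnRNP U belongs, showed 9 higher and 7 lower of 28 (median 0.12), and SR splicing factors 12 and 5 of 25 (median 0.19). HNRNPA3 went from 10.3 and 9.82 to 34.1 and 33.0 FPKM (1.64). Both medians changed sign with length and GC trends removed, to -0.36 and -0.19.

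Genes that share a family symbol and differ in base composition are given next. These families were chosen after their values were seen. TEAD factors carry the YAP signal to DNA. TEAD1, with 41.3% GC in its longest transcript, went from 30.7 and 35.4 to 126 and 158 FPKM (2.06, adjusted p 2.11e-06). TEAD2, with 58.4% GC, went from 22.0 and 26.7 to 6.53 and 8.36 FPKM (-1.59), and TEAD4, with 60.4% GC, from 10.4 and 12 to 2.78 and 3.55 FPKM (-1.55). TEAD3, with 59.8% GC, was also lower (-0.45, adjusted p 0.0177). Among the genes with a KMT2 symbol, KMT2A (46.9% GC), KMT2C (45%) and KMT2E (43.2%) rose with log2 fold changes of 1.61, 1.26 and 1.26. KMT2B (63.5% GC) went from 0.829 and 0.874 to 1.05 and 0.531 FPKM (-0.06) and was not called. KMT2D (59.1%) went from 2.01 and 2.37 to 3.35 and 2.14 FPKM (0.22), also with no call. Changes at such low levels are understated on the log2(FPKM + 1) scale. In the SEC24 family SEC24A (39.0% GC) and SEC24B (43.0%) rose by 1.35 and 1.57, SEC24D (45.5%) was at 0.22 with no call, and SEC24C (53%) was at -0.34 (adjusted p 0.0325). LMNB2, a B-type lamin with 61.4% GC, fell from 43.3 and 38.4 to 17.9 and 16.2 FPKM (-1.21), and LMNB1, with 51.1% GC, was at 0.38 with no call.

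Over 12004 coding genes the fold change ran with composition and with the untranslated 3′ end as well as with coding length. Spearman's rho was -0.73 with GC content of the longest annotated transcript, 0.59 with transcript length and 0.51 with gene span. It was 0.52 with 3′ UTR length, 0.34 with coding length, 0.23 with exon number and 0.07 with 5′ UTR length. It was -0.63 with GC content of the coding sequence alone and -0.64 with that of the 3′ UTR alone. Each base showed it, with 0.71 for A, 0.68 for T, -0.74 for G and -0.70 for C. Genes in the lowest quintile of GC content (31.3% to 40.5%) had a median of 1.05, and those in the highest (57.7% to 74.5%) a median of -1.20. In the shortest quintile of coding length the median rose from -2.07 at the shortest 3′ UTRs to 0.59 at the longest. In the longest quintile of coding length it rose from -0.02 to 0.97. Within the shortest coding quintile and lowest GC quintile 61.2% of genes were higher and 20.5% lower, and in the longest and lowest 97.5% were higher. In the shortest and highest 0.22% were higher and 93.2% lower. The values in both replicate pairs were close (rho with GC content -0.71 and -0.74). Length and GC content were taken from the longest annotated transcript, which for some short mRNAs is not the main one: for RPS29 it holds 7062 nt around a coding sequence of 201 nt. The same limit can apply to longer mRNAs: the length used was 13084 nt for HNRNPU, with 2475 nt coding. It was 11819 nt for NDUFS1, with 2181 nt coding.

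**Figure D4:**
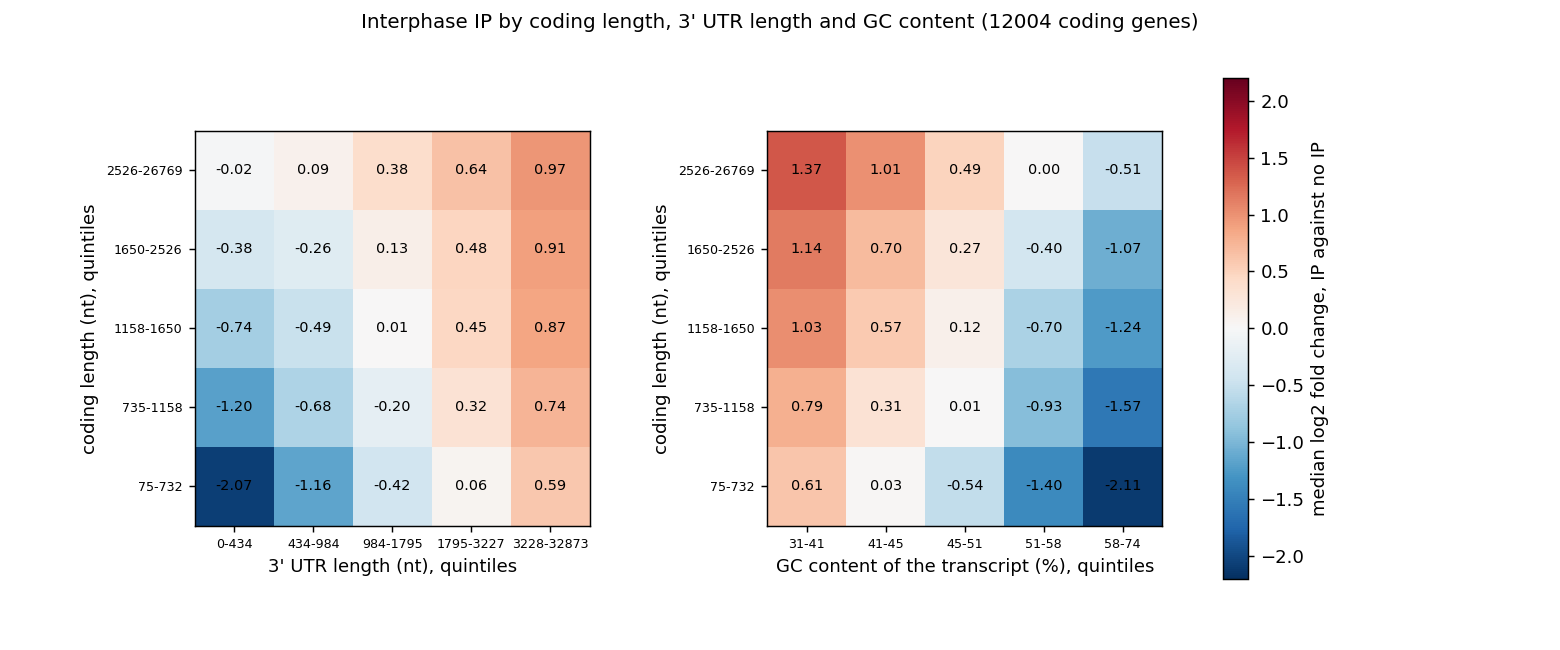
Median log2 fold change in the interphase IP over 12004 coding genes in quintiles of coding length (vertical, nt) against quintiles of 3′ UTR length (left, nt) and of GC content (right, percent). Medians run from -2.07 to 0.97 in the left grid and from -2.11 for short GC-rich to 1.37 for long GC-poor messages in the right grid.

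Chromosomes also differed. The median log2 fold change was highest on chromosomes 13 (0.52, 247 genes), 4 (0.47, 525 genes) and 18 (0.41, 193 genes), where the median transcript had 42.2%, 42.2% and 43.4% GC. It was lowest on chromosomes 19 (-0.75, 904 genes), 22 (-0.64, 301 genes) and 16 (-0.57, 586 genes), with 58.2%, 56.4% and 55.3% GC. With length and GC trends removed these medians were 0.14, 0.12 and 0.13 and -0.08, -0.03 and -0.08. In that setting 4387 genes were higher and 3714 lower of 13108, and 5156 calls were shared in direction with the fit without it, while 1110 had the opposite sign. It left 169 zinc finger genes higher and 73 lower (median 0.16), 16 YAP and TGF-beta genes higher and 4 lower (0.26), and 19 kinetochore and spindle genes higher and 11 lower (0.14). Of the mostly depleted lists, it left 6 glycolysis genes lower and 1 higher (-0.28), 9 cholesterol synthesis genes lower and 5 higher (-0.37), 7 tubulins lower and 3 higher (-0.14), and 52 mitochondrial ribosomal protein genes lower and 6 higher (-0.62). The aminoacyl-tRNA synthetases turned to 13 higher and 6 lower (0.14). Of the lists that moved both ways, it left 12 nuclear pore genes higher and 7 lower (0.16), 14 translation factors higher and 25 lower (-0.25), 8 core spliceosome genes higher and 25 lower (-0.52), 5 coat subunits higher and 6 lower (-0.08), 7 V-ATPase subunits higher and 9 lower (-0.06), and 13 DNA replication genes in each direction (0.12). The list of small actin subunits had 3 higher and 23 lower (-1.02), snoRNA hosts 5 and 13 (-0.48), and the list named abundant nuclear lncRNAs 9 and 5 (0.40). Quantile normalization moved the translation factor median to -0.32 and gave 11 higher members of the list of small actin subunits.

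The interphase effect was then tested against the mitotic one in the same fit. A difference was called for 47.1% of the genes tested. The IP effect was larger in interphase for 2677 genes (19.9% of those tested) and smaller for 3662 (27.2% of those tested). Here larger means that the signed log2 fold change was higher in interphase, and smaller that it was lower, so a depleted gene with a smaller value was depleted more in interphase. Quantile normalization turned the balance, with 3354 larger and 3209 smaller. Mitotic values come from other libraries, whose cells also differ in stage, drug and time, and these cannot be told apart. All but 1 of the 33 large linker and motor genes had a larger effect in interphase (32), with medians of 1.32 in interphase and -0.40 in mitosis. The effect was larger in interphase for 31 of 58 kinetochore and spindle genes and smaller for 10, with medians of 0.54 and -0.69. For remodellers and methyltransferases it was larger for 30 of 40 and smaller for none, and for scaffold factors larger for 24 of 31 and smaller for none. Histone genes were depleted more in interphase, with the signed value smaller there for 40 of 41 and medians of -3.47 and -0.89. For oxidative phosphorylation 72 of 81 were smaller and none larger (medians -2.28 and -0.99), and for mitochondrial ribosomal proteins 59 of 77 smaller and 1 larger. Cytosolic ribosomal proteins had 56 of 84 smaller and 1 larger (medians -2.34 and -1.43). Zinc finger genes had nearly even counts, 81 larger and 72 smaller of 455 (medians 0.53 and 0.44). The spliceosomal snRNAs had medians of -3.92 and -3.21 and 1 of 15 with a called difference, and none of the 5 Y, 7SK and RNase P/MRP RNAs had one. Across coding genes the rho with GC content was -0.59 in mitosis against -0.73 in interphase, and that with coding length 0.07 against 0.34.

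**Figure D5:**
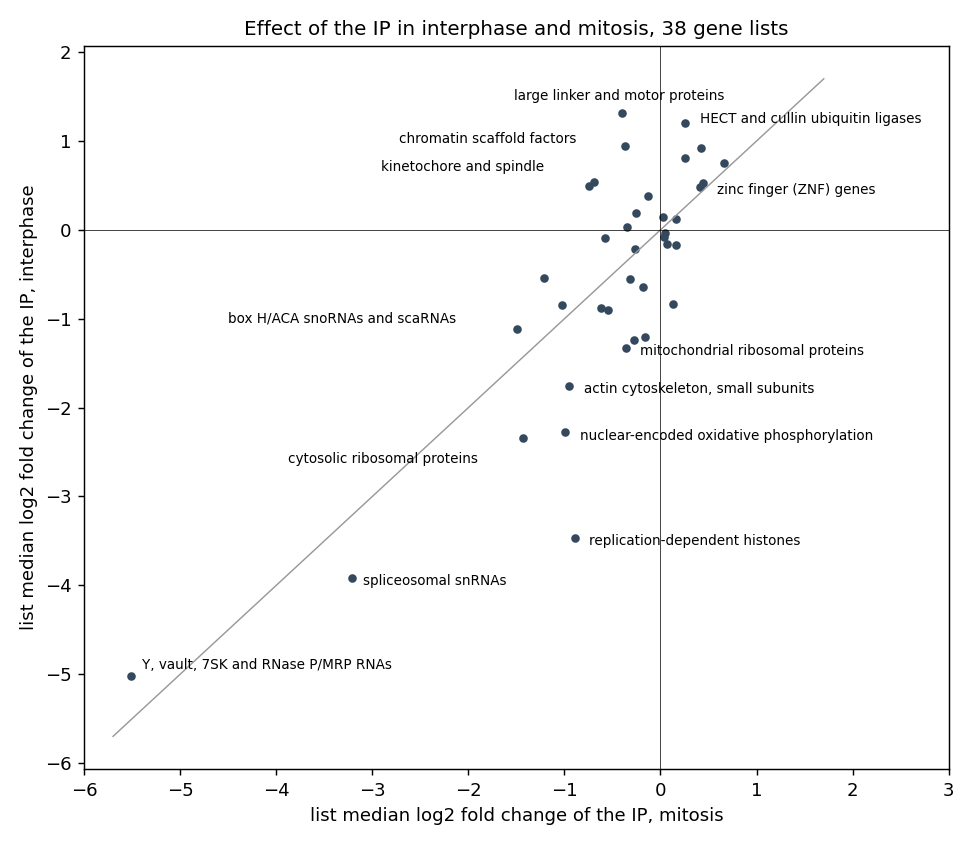
Median log2 fold change of the IP in interphase (vertical axis) against that in mitosis (horizontal axis) for 38 gene lists, one point each; the grey line marks equal values. Histones (-3.47 and -0.89) lie well below the line, and large linker and motor genes (1.32 and -0.40) well above it.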

How the data were processed

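RNA sequencing libraries of hTERT-RPE1 cells were used as deposited: 2 tables of FPKM values, 1 column for each of the 8 libraries, made by the authors on builds hg38 (genes) and hg19 (lncRNA features). The authors' deposited ratio columns, quotients of FPKM columns per the file headers, were not used. TopHat and StringTie are listed, without role or version, per the submitters' processing notes. Filters and the handling of shared reads are not given in the sources used here. Libraries were directional and depleted of ribosomal RNA, per the labels' protocols. The number of fragments per library is not given, and relative depth was read from the steps of low FPKM values (32 to 78 of 914 low genes on the commonest step).

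Each table was fitted alone with limma 3.58.1 in R 4.3.3 (lmFit and eBayes, mean-variance trend on). The 4 groups each had a coefficient, the values were log2(FPKM + 1), and no filter was applied. A call is a Benjamini-Hochberg adjusted p below 0.05 over the table. Fold changes on this scale understate changes of low genes. Of the genes 97.3% were matched to GENCODE 29, and 21.3% share their interval with another gene. Genes were named by a rule: ranks 6 to 15 by fold change in each direction, the 3 largest calls in a list's main direction and 1 in the other, HNRNPU, and members of lists of at most 6. The members, the 39 gene lists and the tests were chosen with earlier results of these data known. One list, the mitochondrially encoded genes, had no measured member. Length and GC trends were removed by loess (span 0.5) on the longest transcript. Alternatives were a replicate block, the interphase libraries alone, pseudocount 0.1, a mean of at least 1 FPKM, quantile normalization, median centring, no variance trend, each interphase library left out, and genes with ambiguous intervals left out. Some genes named by the rule are not reported here.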

Additional observations from a re-analysis of the deposited data

Results flagged for a closer look

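For 62 of the 81 named genes the effect of the IP differed between interphase and mitosis in the limma interaction (adjusted p below 0.05 over the gene table, where 47.1% of all genes tested passed). Genes were named mainly for large interphase fold changes, which are part of the difference tested. Their share of calls therefore cannot be weighed against that of all genes. The values below are the interphase log2 fold change minus the mitotic one, positive for 28 genes and negative for 34. The largest gap in each direction was that of HIST1H2BJ at -2.90 (adjusted p 0.000286) and that of PRPF8 at 2.31 (adjusted p 0.000378). Among genes of chromatin, repair and the nuclear envelope it was 2.25 for TPR, 1.96 for ATRX, 1.76 for PRKDC, 1.73 for RANBP2, 1.72 for RIF1, 1.53 for TOP2A and 0.64 for PDS5A. In the same group the difference was -2.90 for HIST1H2BJ, -2.36 for HIST1H4D, -2.05 for POLE4, -1.96 for FANCG and -1.10 for SEC13. Among genes of RNA processing, kinetochores and RNA binding it was 2.31 for PRPF8, 1.83 for ZFC3H1, 1.49 for CASC5, 0.75 for HNRNPU and 0.39 for HNRNPA3. In the same group the difference was -2.24 for SF3B5, -1.83 for CENPM, -1.82 for NXT1 and -1.21 for LSM7. Among genes of translation and energy metabolism it was 1.18 for EIF2AK2, 0.88 for HK2 and 0.54 for MRPL19. In the same group the difference was -2.28 for RPL38, -1.88 for RPS29, -1.81 for EBP, -1.79 for ATP5I, -1.77 for MRPL41, -1.74 for EEF1D, -1.73 for COX8A, -1.61 for RPS21, -1.26 for GAPDH, -1.0 for NDUFS1 and -0.43 for RPL7L1. Among genes of the cytoskeleton, membranes, matrix and protein turnover it was 1.5 for COL5A2, 1.16 for DST, 1.05 for VPS13A and 0.76 for SLC36A4. In the same group the difference was -2.06 for PSMB6, -1.66 for TUBA1B, -1.5 for ATP6V1F, -1.48 for TMSB10, -1.48 for COPE, -1.46 for SLC25A39 and -1.27 for TIMP1. Among transcription factors and signalling genes it was 1.73 for NFAT5, 1.57 for ELK3, 1.14 for PCGF5, 1.01 for ZNF652, 1.0 for MDM2, 0.96 for BMPR2 and 0.80 for KLF6. In the same group the difference was -1.85 for ZNF593, -1.45 for TEAD2, -1.38 for JUND and -0.51 for BAX. Among noncoding RNAs and the small peptide gene it was 1.25 for OIP5-AS1 and 1.15 for SNORD114-14. In the same group the difference was -2.76 for SNHG9, -1.82 for C4orf48 and -1.69 for LINC00152.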

How the results depend on the processing

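Under the alternatives other than the removal of length and GC trends, the 81 named genes kept their direction except RMRP, which was not called and turned to 1.38 under quantile normalization. Of the 38 list medians, those that changed sign under these alternatives lay within 0.1 of 0 in one of the 2 fits, among them solute carriers, DNA replication, p53 targets and box C/D snoRNAs. Removal of length and GC trends turned 7 list medians that lay at least 0.1 from 0 in both fits: aminoacyl-tRNA synthetases (0.14), hnRNP proteins (-0.36), SR factors (-0.19), p53 targets (0.24), immediate early genes (0.23), box C/D snoRNAs (0.79) and box H/ACA snoRNAs with scaRNAs (0.20). It turned 4 named genes: TERC (0.25), NDUFS1 (-0.15), PSMD12 (-0.17) and HNRNPU (-0.64); the cause was not tested. In the gene table leaving out a library gave 4563 to 4810 higher and 4532 to 4852 lower genes. In the lncRNA table it gave 17 to 26 higher and 27 to 44 lower features, against 101 and 116, with fewer residual degrees of freedom. The interphase libraries alone gave 19 higher and 46 lower features.

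The labels give replicate numbers and say nothing of a shared culture or day, and a group has 2 libraries, so the design does not pair them. Deviations of same-numbered libraries correlated at 0.277 across genes and 0.638 across lncRNA features in the interphase groups, and over all pairs of groups at 0.0883 to 0.528 and 0.554 to 0.681, a hint of pairing from the data. With the replicate block the gene table gave 5217 higher and 5157 lower genes, the lncRNA fit gave 156 and 197 features, and the H/ACA list 69 lower members; the block changed no call of a named gene. Fragment numbers are unknown, so no counting error is given, and 2 libraries a group limit the precision.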
